A study of Mus musculus with 8 samples.

Results

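Red blood cell production and haem synthesis were followed through 39 mouse genes: transcription factors, membrane skeleton proteins, blood group antigens, haem synthesis enzymes and a few further erythroid genes, with the globins left out. The members were given by symbol, and of the probes whose accession maps to a gene the brightest on average stands for it. All 39 had a named probe and all 39 passed the filter on dim probes, out of 20284 genes with a named probe and 14560 genes tested. The filter asks that both arrays of some group detect a gene well above background. All 39 genes reached that in the fetal livers, so passing it says nothing about the adult livers.

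Liver RNA of C57BL/6J mice was hybridised to 8 single-colour arrays. The 4 RNA samples were livers of Btg2-knockout adult mice (KO adult), of wild-type adult mice (WT adult), of Btg2-knockout fetuses (KO fetal) and of wild-type fetuses (WT fetal). Btg2, also called TIS21 or PC3, encodes an antiproliferative protein. Adults were males of 10 weeks, fasted for 20 h in both genotypes. Fetal livers of embryonic day 13.5 were pooled across more than 3 embryos of both sexes per genotype. Each sample was measured on 2 arrays, which the study's design text calls technical duplicates, so p-values measure the spread between arrays of 1 RNA sample and not the spread between animals. The sources used here do not say how the knockout allele was built. Fed adults were not analysed here.

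In mice the fetal liver is the main site of red cell formation in mid-gestation, and production later moves to bone marrow and spleen. The programme is driven by GATA1 with its partners TAL1, LMO2 and FOG1, and by KLF1, and it is sustained by erythropoietin acting on its receptor. Haem is built from glycine and succinyl-CoA by a chain of enzymes that begins and ends in the mitochondrion. Erythroid cells use it for haemoglobin, and hepatocytes use it chiefly for cytochromes P450, so the enzymes of the chain are shared between both cell types while the isozyme that erythroid cells use at its first step is their own.

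Promoter sequence is shown for 5 members because the results turn on them: Rhd had the largest bound on its adult to fetal difference, Alas2 encodes the erythroid isozyme of the first step, Cpox and Tspan33 had knockout effects that differed between stages, and Hemgn ran against the other members. These 5 were picked with their values known. Each line gives the 120 bases before the annotated start, 5′ to 3′ on the gene's own strand, from RefSeq (GRCm38.p6), with GATA boxes in capitals. A GATA box here is AGATAA on either strand, the same box beginning with T (TGATAA) or ending in G (AGATAG), or with both changes (TGATAG).
Rhd (chr4:134864416-134864535, + strand): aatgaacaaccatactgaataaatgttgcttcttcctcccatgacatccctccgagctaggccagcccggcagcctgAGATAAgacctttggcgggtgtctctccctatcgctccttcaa
Alas2 (chrX:150547297-150547416, + strand): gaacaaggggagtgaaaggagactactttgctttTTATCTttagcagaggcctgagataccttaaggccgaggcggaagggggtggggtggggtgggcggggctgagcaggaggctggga
Cpox (chr16:58670088-58670207, + strand): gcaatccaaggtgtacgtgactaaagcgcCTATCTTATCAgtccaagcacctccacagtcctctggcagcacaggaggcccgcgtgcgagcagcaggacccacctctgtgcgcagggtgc
Hemgn (chr4:46404184-46404303, - strand): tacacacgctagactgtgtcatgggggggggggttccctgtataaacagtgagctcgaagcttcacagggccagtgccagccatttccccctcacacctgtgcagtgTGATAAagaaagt
Tspan33 (chr6:29694094-29694213, + strand): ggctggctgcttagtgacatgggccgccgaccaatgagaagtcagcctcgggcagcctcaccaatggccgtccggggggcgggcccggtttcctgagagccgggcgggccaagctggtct

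Rhd, Alas2 and Hemgn had 1 box each in these 120 bases. The capitals of Cpox are 2 overlapping boxes, and Tspan33 had none of the 4 forms there. A RefSeq promoter of 300 bases, 250 before and 50 after the start, was at hand for 29 of the 39 members. Of these 29 promoters 17 (58.6%) held a GATA box, compared with 30.2% of all 27025 promoters in the table. The AGATAA form alone was in 10 of 29 (34.5%), compared with 11.4%. The motif CCNCNCCC, a form bound by KLF1, was in 21 of 29 (72.4%), compared with 49.1%, and CACCC, which overlaps it in part, was also in 21 of 29, compared with 56.7%. The E-box CANNTG, the class of site bound by TAL1, was in 20 of 29 (69%), close to the 72.1% of all promoters. Matches to letters are not binding sites, and overlapping matches of different motifs were each counted.

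The arrays were well matched within groups. Duplicates correlated across genes at r of 0.992 to 0.997, and the WT adult pair was the noisiest, with an SD of 0.43 between its arrays on the log2 scale. The 75th percentile of signal, to which every array was scaled, was lower on the adult arrays (132 to 171) than on the fetal arrays (277 to 333). Btg2 itself gave signals of 6.26 and 8.02 in KO adult, against 149 and 158 in WT adult, and of 4.54 and 5.14 in KO fetal, against 2071 and 2079.9 in WT fetal. None of the 4 knockout arrays detected it well above background. The 8 arrays lay on 1 slide with each group in its own slide column, so slide column and group cannot be told apart.

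Adult liver had far less RNA of most erythroid genes than fetal liver, in both genotypes. A call here means a Benjamini-Hochberg adjusted p under 0.05 in limma, over all genes tested, with a difference of at least 2-fold. In KO liver 35 of the 39 members were lower in adult than in fetal, where 27.8% of all genes were called lower, 25.8% higher and 53.5% either way. In WT liver 32 were lower, where 27.9% of all genes were called lower, 27.3% higher and 55.2% either way. All 32 of these were lower in KO liver too, and Epb41, Sptb and Cpox were called in KO but not in WT liver. The test of that difference is given with the stage comparison of the knockout effects, where Epb41 and Cpox passed and Sptb did not (adjusted p = 0.242). Hemgn was called higher in adult liver in both genotypes. The median adult minus fetal difference of the members was -5.92 in KO liver and -5.24 in WT liver on the log2 scale, compared with -0.04 in KO and -0.01 in WT liver for all genes. These counts and medians include members undetected in adult liver (13 in KO and 14 in WT), which passed the filter through the fetal arrays alone. Of the 25 members that all arrays compared had detected, 22 had differences below 0 in KO liver and 23 in WT liver. The median over these 25 was -2.76 in KO liver and -2.93 in WT liver. In whole liver, fewer cells of a type and less RNA per cell cannot be told apart. The adults were fasted males, and the fetal samples were pools of both sexes with no fast given. Stage, fasting and sex therefore cannot be told apart in any adult minus fetal difference, that of Alas1 included.

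**Figure D1:**
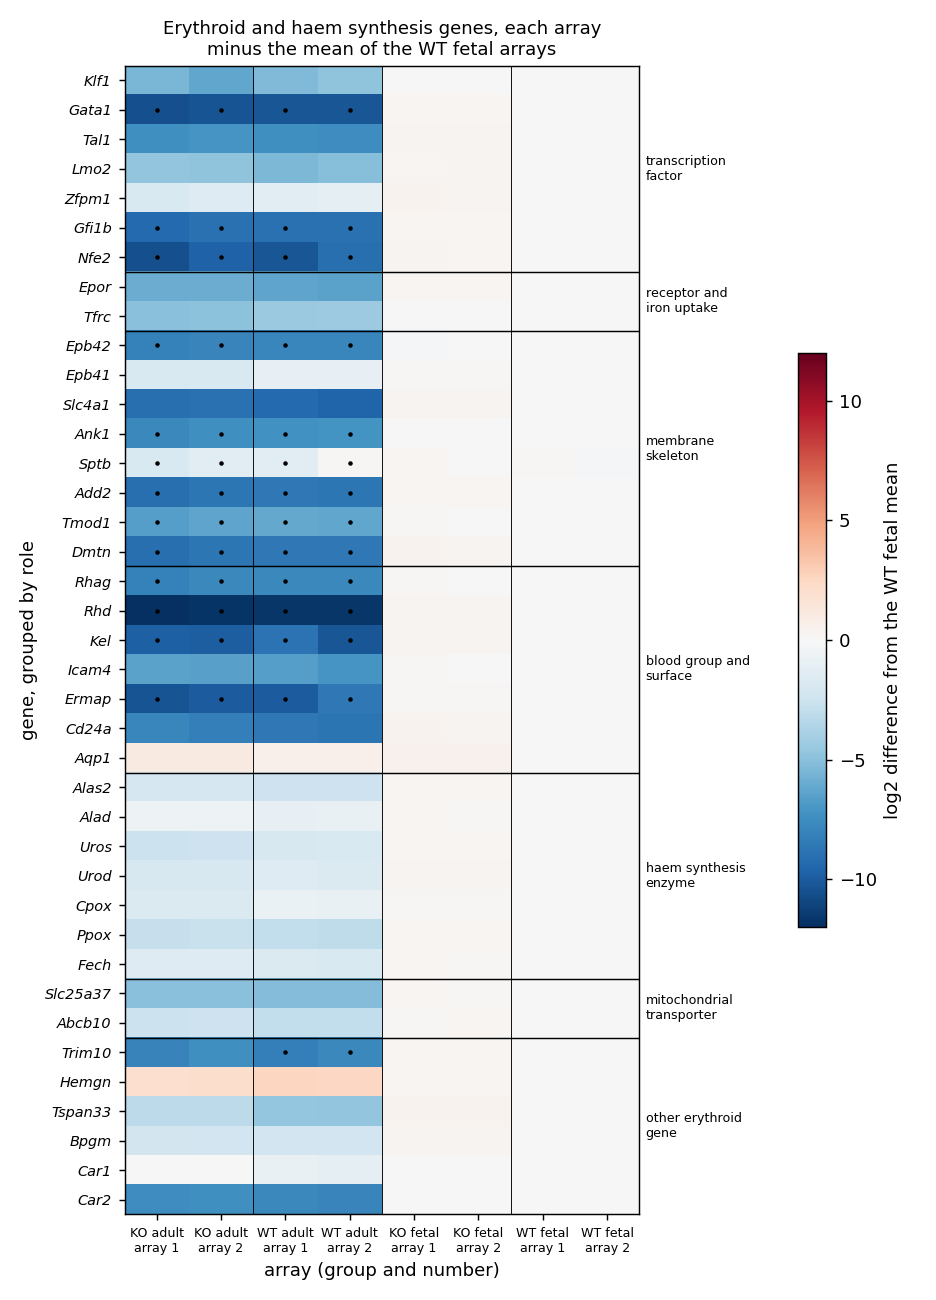
Each row is a member, each column an array, and colour is the scaled log2 signal minus the mean of the 2 WT fetal arrays. Black dots mark groups whose 2 arrays both lacked a signal well above background. In the adult columns nearly all rows are blue, Hemgn is red, Aqp1 is faintly red (a direction that median scaling turned in WT liver), and 13 genes carry dots in both adult groups; KO fetal and WT fetal columns are close to each other.

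The transcription factors were all called lower in adult liver, 7 of 7 in each genotype. Gata1, the central factor of the programme, had signals of 5.67 and 6.77 in KO adult, against 16992 and 17027 in KO fetal. It had 5.61 and 5.36 in WT adult, against 17394 and 16242 in WT fetal. Neither adult group was detected, so only a bound can be given: adult was at least 404-fold lower in KO liver and at least 286-fold lower in WT liver. The adjusted p of limma (2.5e-11 in KO and 2.82e-11 in WT) belongs to a difference that uses adult values below background. It does not test these bounds. Nfe2, encoding a leucine zipper factor that acts on globin control regions, and Gfi1b, a zinc finger repressor, were likewise undetected in adult liver. Nfe2 was at least 363-fold lower in KO adult and 254-fold lower in WT adult, and Gfi1b was at least 151-fold lower in KO adult and 111-fold lower in WT adult.

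The other factors stayed above background in adult liver. Tal1, encoding a basic helix-loop-helix factor, was 184-fold lower in KO liver and 170-fold lower in WT liver. Lmo2, whose protein bridges TAL1 and GATA factors, was 33.2-fold lower in KO liver and 37.9-fold lower in WT liver. Klf1, which activates the adult beta-globin gene, was 60.4-fold lower in KO liver and 33.7-fold lower in WT liver. Zfpm1, encoding the GATA cofactor FOG1, had the smallest difference of the group. Its adult signals were 3379 and 3870.2 in KO, against 25282 and 24702 in KO fetal, and 3888 and 3969 in WT, against 22479 and 22731 in WT fetal. That is 4.24-fold lower in KO adult and 2.33-fold lower in WT adult.

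Both genes of signalling and iron uptake were lower in adult liver. Epor, the erythropoietin receptor gene, had signals of 170 and 166 in KO adult, against 20571 and 20252 in KO fetal, and of 104 and 94.5 in WT adult, against 20410 and 20229 in WT fetal. It was 74.6-fold lower in KO adult and 82.7-fold lower in WT adult. Tfrc, encoding the transferrin receptor, was 32.1-fold lower in KO liver and 21.5-fold lower in WT liver by the probe used. A further probe detected on all arrays gave adult minus fetal differences of -5.87 in KO liver and -3.32 in WT liver, and the remaining probe was undetected in adult liver.

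Membrane skeleton genes were mostly undetected in adult liver. Slc4a1, encoding the anion exchanger band 3, was an exception that could be measured at both stages. Its signals were 87.1 and 93.5 in KO adult, against 95177 and 96684 in KO fetal, and 57.2 and 46.6 in WT adult, against 91205 and 89137 in WT fetal. The groups were far apart, with adult 652-fold lower in KO liver (log2 difference -9.35 ± 0.08 SE, adjusted p = 3.95e-11) and 706-fold lower in WT liver (-9.46 ± 0.08, adjusted p = 3.47e-11).

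Add2 (beta-adducin), Dmtn (dematin), Epb42 (protein 4.2), Ank1 (ankyrin) and Tmod1 (tropomodulin) were below detection in all adult arrays. Their bounds ran from at least 25.3-fold (Tmod1) to at least 151-fold (Add2) lower in KO adult, and from at least 20.0-fold (Tmod1) to at least 107-fold (Add2) lower in WT adult. Sptb, encoding beta-spectrin, was dim everywhere, with signals of 28.1 to 33.7 in KO fetal and 29.4 to 36.8 in WT fetal, and no bound on a fold can be given. Its call in KO liver (-1.66 ± 0.48, adjusted p = 0.013) therefore rests on adult values below background, and it turned to 0.22 with normexp background correction. Epb41, encoding protein 4.1, which ties spectrin to actin, stayed bright in adult liver. It differed by -2.03 ± 0.03 in KO liver, a called fall, and by -0.98 ± 0.03 in WT liver, just short of 2-fold; median scaling took the WT value to -1.69, a call.

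Blood group and surface genes included the largest bounds. Rhd, whose protein carries the Rh antigen in humans, had signals of 5.01 and 6.33 in KO adult, against 44735 and 44148 in KO fetal, and of 5.24 and 5.33 in WT adult, against 41988 and 41800.5 in WT fetal. Adult was at least 1060-fold lower in KO liver and at least 713-fold lower in WT liver. The adjusted p of limma (2.61e-11 in KO and 3.12e-11 in WT) again uses adult values below background and does not test the bounds. The Rhd promoter shown above has its AGATAA box 43 bases before the start. Kel (the Kell endopeptidase), Ermap (the Scianna antigen) and Rhag (the Rh-associated glycoprotein) were also undetected in adult liver, at least 53.5-fold to 366-fold lower in KO adult and 43.6-fold to 247-fold lower in WT adult. For Ermap the probes disagreed: a further probe was well above background in adult liver and differed by only -1.59 in KO and -1.46 in WT liver. Cd24a, the heat-stable antigen gene, was 340-fold lower in KO adult and 414-fold lower in WT adult. Icam4, encoding an adhesion molecule of red cells, was 93.6-fold lower in KO adult and 117-fold lower in WT adult.

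Aqp1, encoding a water channel of red cells that endothelium and bile ducts also make, was the member of this group that was not lower. Its signals were 8355 and 8579 in KO adult, against 9205 and 9594 in KO fetal, and 4891 and 4755 in WT adult, against 7656 and 7840.0 in WT fetal. After scaling it differed by 0.55 ± 0.04 in KO liver and 0.62 ± 0.04 in WT liver, without passing 2-fold. With scaling to the median of each array the WT difference was -0.09, so its direction depends on the scaling.

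**Figure D2:**
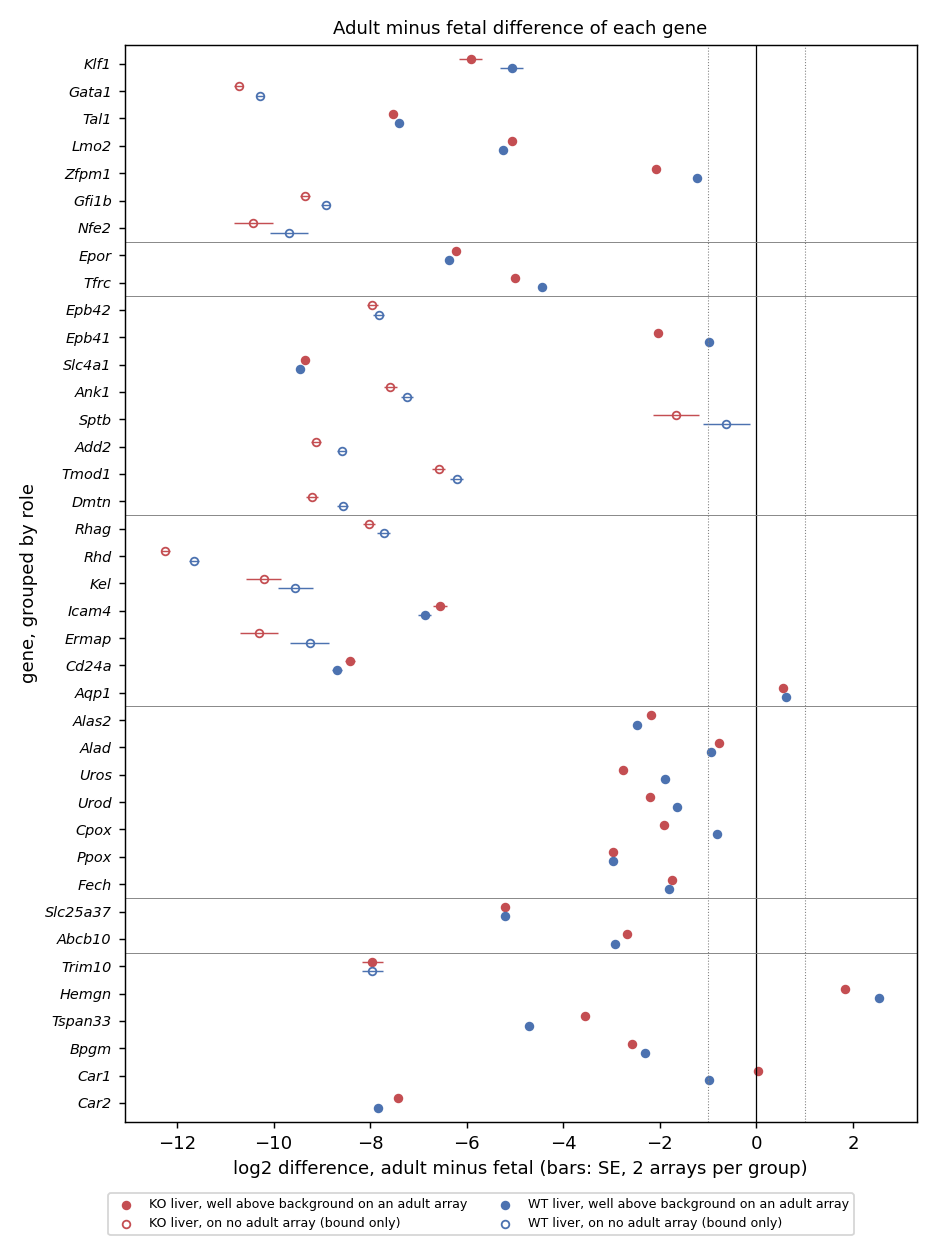
Adult minus fetal log2 difference of each member in KO liver (red) and WT liver (blue), with SE from 2 arrays per group. Open points are genes on no adult array well above background, whose true difference is only bounded. Dotted lines mark 2-fold. Transcription factor, skeleton and blood group genes lie mostly below -5, haem synthesis enzymes between -3 and 0, and Hemgn alone lies above 1.

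Haem synthesis enzymes were lower in adult liver by much less. Their median difference was -2.19 in KO liver and -1.80 in WT liver, and all 7 were well above background on every adult array. Alas2, the erythroid isozyme of 5-aminolevulinate synthase, had signals of 7477 and 7457 in KO adult, against 55452 and 55577 in KO fetal, and of 4254 and 4024 in WT adult, against 57445 and 56283 in WT fetal. Adult was 4.56-fold lower in KO liver (adjusted p = 2.44e-10) and 5.56-fold lower in WT liver (adjusted p = 1.2e-10). Alas1, the housekeeping isozyme of the same step and no member, ran the other way: it was higher in adult liver by 4.81 ± 0.07 in KO and by 5.81 ± 0.07 in WT on the log2 scale.

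Of the later enzymes, Ppox, encoding protoporphyrinogen oxidase, was 7.80-fold lower in KO adult and 7.85-fold lower in WT adult. Uros and Urod, which make and then decarboxylate uroporphyrinogen, were lower as well, Uros 6.79-fold in KO and 3.69-fold in WT adult, and Urod 4.59-fold in KO and 3.13-fold in WT adult. Fech, encoding ferrochelatase, which inserts the iron, was 3.35-fold lower in KO adult and 3.48-fold lower in WT adult. Cpox, encoding coproporphyrinogen oxidase, was 3.79-fold lower in KO adult, and in WT adult its difference of -0.82 ± 0.04 did not reach 2-fold. Alad, encoding the enzyme of the second step, differed by -0.78 ± 0.04 in KO liver and -0.93 ± 0.04 in WT liver and was called in neither. These near-threshold values were called lower in WT liver under other scalings (Cpox down to -1.53, Alad down to -1.64).

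Both mitochondrial transporter genes were lower in adult liver. Slc25a37, encoding the iron importer mitoferrin 1, was 36.6-fold lower in KO adult and 37.0-fold lower in WT adult by the probe used. Its other probe, also detected on all arrays, gave log2 differences of -5.37 in KO liver and -4.40 in WT liver. Abcb10, an inner-membrane transporter that erythroid haem synthesis needs, was 6.47-fold lower in KO adult and 7.64-fold lower in WT adult. Both were measured on all 8 arrays.

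Among the other erythroid genes, Hemgn was the exception. Hemgn encodes hemogen, a nuclear protein of blood-forming cells. Its signals were 81113 and 84644 in KO adult, against 37889 and 38337 in KO fetal, and 88906 and 87500.4 in WT adult, against 37720 and 37618 in WT fetal. No adult array overlapped a fetal one, and none of these spots was saturated. The scaled difference was 1.83 ± 0.04 in KO liver (3.54-fold, adjusted p = 2.25e-09) and 2.53 ± 0.04 in WT liver (5.79-fold, adjusted p = 3.5e-10). It kept its call under every alternative run, from 1.29 to 1.86 in KO liver and from 1.82 to 2.55 in WT liver. The value rests on 1 probe.

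Tspan33, encoding an erythroid tetraspanin, was 11.6-fold lower in KO adult and 26.1-fold lower in WT adult. Car2, a carbonic anhydrase gene, was 171-fold lower in KO adult and 229-fold lower in WT adult. Bpgm, whose enzyme makes the red cell regulator of oxygen affinity, was 5.94-fold lower in KO adult and 4.91-fold lower in WT adult. Trim10, encoding an erythroid RING finger protein, was at least 194-fold lower in WT adult. In KO adult it was well above background on 1 of 2 arrays and differed by -7.95 ± 0.21. Car1, the other carbonic anhydrase, differed by 0.03 ± 0.08 in KO liver and -0.98 ± 0.08 in WT liver, called in neither; median scaling took them to -0.51 in KO and to -1.69, a call, in WT liver.

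**Figure D3:**
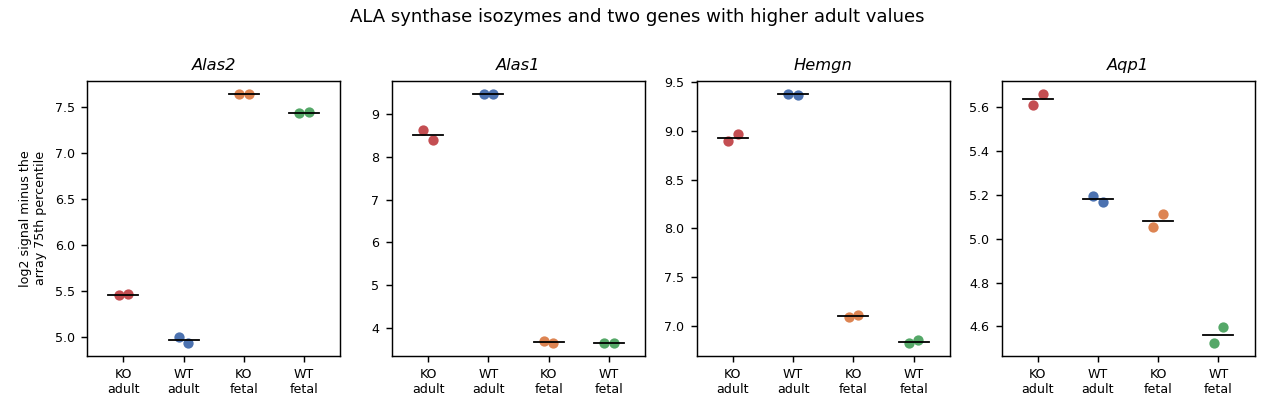
Scaled log2 signal of each array (points) and group mean (lines) for Alas2, Alas1, Hemgn and Aqp1, in KO adult, WT adult, KO fetal and WT fetal; vertical ranges differ between panels. Alas2 is lower and Alas1 and Hemgn are higher in the adult groups.

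Further genes of the same pathways were also called lower in adult liver more often than higher. Of all genes, 27.8% were lower and 25.8% higher in KO liver, and 27.9% lower and 27.3% higher in WT liver. Of 24 further erythroid regulators, 16 were lower and 1 higher in KO adult, and 15 lower and 2 higher in WT adult. Of 25 further red cell membrane and surface genes, 20 were lower and 2 higher in each genotype. Of 28 further genes of haem synthesis and red cell enzymes, 18 were lower and 4 higher in KO adult, and 14 lower and 3 higher in WT adult. Hepatocyte markers ran the other way: 11 of 12 were called higher in adult liver in each genotype, and Afp, the fetal member, was lower.

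In fasted adult liver, few of these genes differed by 2-fold or more between knockout and wild type. Tspan33 and Car1 were higher in KO adult than in WT adult, and no member was called lower, so that 2 of 39 were called where 7.49% of all genes were (4.96% higher, 2.53% lower). The median KO minus WT difference was -0.21 over the 39, compared with -0.10 over all genes. That median is set in part by 13 genes undetected in both adult groups (signals of 4.63 to 9.07 in KO and 4.75 to 14.4 in WT), whose differences of -0.93 to -0.18 carry no order. Over the 25 members that all 4 adult arrays detected the median was 0.25, with 17 differences above 0. The sign of the median of all 39 also changed with the setting, from -0.29 to 0.25.

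Tspan33 had signals of 1664 and 1670.2 in KO adult, against 442 and 421 in WT adult. The KO arrays lay well above both WT arrays. The log2 difference was 1.59 ± 0.03 (3.01-fold, adjusted p = 6.37e-08), and the call held in every alternative run, between 1.54 and 1.79. Car1 had signals of 302 and 301 in KO adult, against 125 and 105 in WT adult, again without overlap. It differed by 1.04 ± 0.08 (2.05-fold, adjusted p = 2.82e-05), and a second probe gave 1.21. Its call was lost with normexp (0.75) and without the second WT adult array (0.92). The WT adult arrays were unlike for Klf1 (signals of 70.6 and 101.5), Nfe2 (4.79 and 11.3), Sptb (5.23 and 14.4) and Ermap (4.86 and 13.1). The KO adult arrays were unlike too, for Klf1 (82.3 and 48.96), Nfe2 (5.14 and 9.07), Sptb (4.92 and 7.28) and Ermap (4.73 and 6.1). The sizes of the negative KO minus WT differences of these genes therefore depend on which adult arrays are compared. By the probes used, Klf1 alone of these 4 was above background in adult liver; the further Ermap probe that was detected there differed by -0.04.

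Other cell types differed between the adult samples at the same time. All 13 measured macrophage and Kupffer cell markers were called higher in KO adult, with a summed signal of 65289 to 66099 in KO and 8922 to 9501 in WT. Marco, a macrophage scavenger receptor gene, was higher by 3.64 ± 0.04. Of 10 measured intestinal epithelium markers, a tissue in which Car1 is also made, 5 were higher and 2 lower. Of all genes, 4.96% were called higher and 2.53% lower. Krt20 was at least 2.76-fold higher, while the summed signal was 16922 to 16952 in KO and 33191 to 33643 in WT. Most of that sum was 1 gene, Fabp2, with signals of 15046 and 15058 in KO adult, against 31037 and 30624 in WT adult. The sum therefore does not speak for the marker set. Hepatocyte markers had 0 of 12 called by limma and a median of -0.16. By an adjusted p under 0.05 alone, 2 of these markers were higher and 8 lower, where 22.8% and 32.8% of all genes were. Of 8 endothelial markers 1, Tek, was higher, and their median was 0.53. Of the 39 members, 13 were not well above background in either adult sample, Gata1, Rhd, Ank1 and Epb42 among them. Of the 25 members that all 4 adult arrays detected, 17 had differences above 0 and 8 below 0. The part of these cell types in the differences of Tspan33 and Car1 was not tested.

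Differences under 2-fold ran both ways in adult liver. By adjusted p alone, 15 members were higher and 8 lower, where 22.8% and 32.8% of all genes were (55.6% in all). The sizes depend on the scaling constant, since the 75th percentile was higher on the KO adult arrays by 0.36 on the log2 scale, and the brightest 10% of genes had a median difference of -0.28. Within the haem chain, Alas2 differed by 0.49 ± 0.03, Alad by 0.31 ± 0.04, Ppox by 0.25 ± 0.04 and Fech by 0.23 ± 0.03, whereas Cpox differed by -0.94 ± 0.04, Uros by -0.64 ± 0.02 and Urod by -0.24 ± 0.04. Without scaling the Urod difference was 0.11, so its direction depends on the scaling, while the signs of the other 6 were the same. Alas1 differed by -0.96 ± 0.07, short of 2-fold. Positive values also held for Cd24a (0.65 ± 0.10), Lmo2 (0.46 ± 0.07), Slc4a1 (0.45 ± 0.08), Aqp1 (0.45 ± 0.04), Abcb10 (0.43 ± 0.03), Car2 (0.41 ± 0.05), Epor (0.40 ± 0.04) and Icam4 (0.39 ± 0.14). For Slc25a37, also among the 15, the probes disagreed. The probe used gave 0.22 ± 0.03, and the other probe, detected on all arrays, gave -0.49.

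Negative values in adult liver included Epb41 and Tfrc. Epb41 had signals of 5351 and 5284 in KO adult, against 7840.0 and 7556 in WT adult, a difference of -0.89 ± 0.03 that fell short of 2-fold. A dimmer Epb41 probe, above background on 1 of 2 KO and 2 of 2 WT adult arrays, gave -1.24 in adult and 0.60 in fetal liver. The remaining Epb41 probe, undetected in adult liver, gave -0.75 in adult and 0.28 in fetal liver. Tfrc differed by -0.56 ± 0.03 by the probe used. Its other measured probe gave -1.81, so that averaging the probes of a gene made Tfrc a called fall of -1.20. Zfpm1 differed by -0.48 ± 0.06 and Hemgn by -0.45 ± 0.04. Klf1 differed by -0.77 ± 0.24, with -0.14 between the first arrays of the groups and -1.41 between the second.

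**Figure D4:**
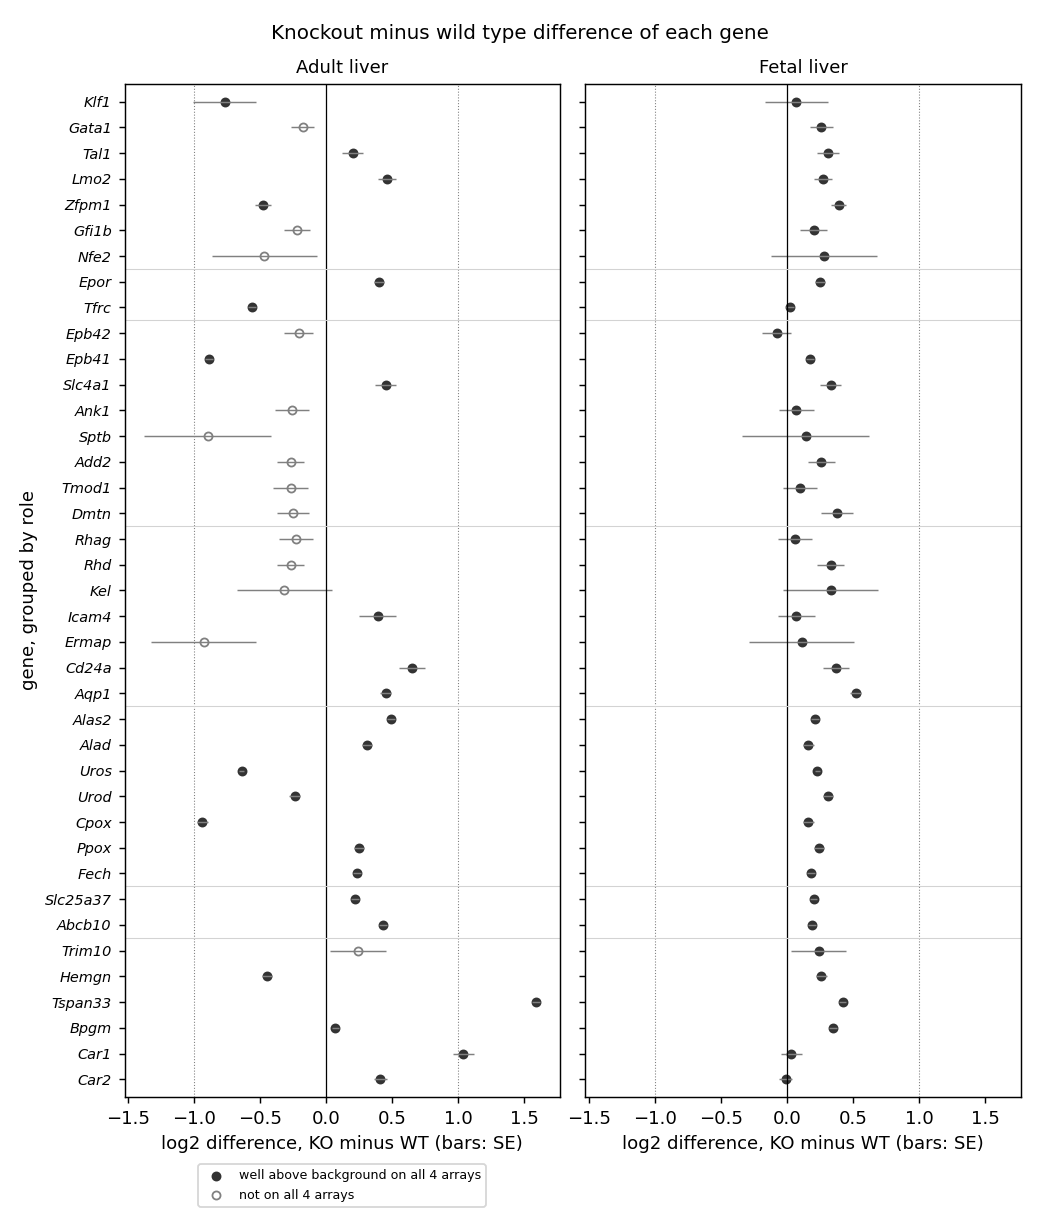
KO minus WT log2 difference of each member in adult liver (left) and fetal liver (right), with SE. Open points are genes that not all 4 arrays detected. Dotted lines mark 2-fold. In adult liver Tspan33 and Car1 lie right of 1 and Cpox and Epb41 just inside -1, whereas in fetal liver every point lies between -0.08 and 0.52.

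In fetal liver no member was called in limma, where 1.95% of all genes were (0.515% higher, 1.44% lower). An unadjusted p under 0.05 in limma held for 24 of the 39, a count that cannot be read without the share of all genes. That share was not worked out. All 39 were well above background on all fetal arrays. Differences ran from -0.08 (Epb42) to 0.52 (Aqp1), with 37 of 39 above 0 and a median of 0.23, compared with 0.02 for all genes. By adjusted p alone 20 were higher and 0 lower, where 13.9% and 8.61% of all genes were (22.5% in all). Aqp1 had signals of 9205 and 9594 in KO fetal, against 7656 and 7840.0 in WT fetal, a difference of 0.52 ± 0.04 (adjusted p = 0.000311). Tspan33 differed by 0.42 ± 0.03, Zfpm1 by 0.39 ± 0.06, Bpgm by 0.35 ± 0.03 and Slc4a1 by 0.33 ± 0.08.

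The size of this common shift depends on the scaling constant. The 75th percentile was lower on the KO fetal arrays by 0.24 on the log2 scale, and without scaling the members' median difference was -0.01, with a range of -0.32 to 0.28. Among the brightest 10% of genes, which included 29 of the members, 79% of all differences were above 0, with a median of 0.11 over those 1456 genes and 0.24 over the 29. Under the alternatives the median of the 39 stayed between 0.14 and 0.26. Macrophage markers had 0 of 13 called in fetal liver by limma, with a median of 0.12. By adjusted p alone 7 of these markers were higher and 0 lower, where 13.9% and 8.61% of all genes were.

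Related genes were called between genotypes at shares near those of all genes. Over 77 further erythroid regulator, membrane and haem genes, 5 were higher and 1 lower in KO adult, where 7.49% of all genes were called, and 2 were higher and 0 lower in KO fetal, where 1.95% were. In adult liver these were E2f2, a cell cycle factor (1.18 ± 0.06), Epb41l3, a relative of protein 4.1 (1.53 ± 0.07), Cd44, an adhesion receptor (1.14 ± 0.14), G6pdx, encoding glucose-6-phosphate dehydrogenase (1.14 ± 0.03), Ackr1, the Duffy antigen gene (at least 1.97-fold), and Cbfa2t3, a corepressor gene (-1.75 ± 0.36). The Cbfa2t3 value rests on unlike WT adult arrays, with -0.90 between the first arrays of the groups and -2.60 between the second. In fetal liver they were Steap3, an iron reductase (1.61 ± 0.04), and Tpm1, a tropomyosin (1.07 ± 0.06).

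The knockout effect differed between stages for 4 members, tested as the difference of the KO minus WT effects, adult minus fetal. Tspan33 and Car1 were more positive in adult liver and Epb41 and Cpox more negative, so 4 of 39 were called where 9.73% of all genes were (6.05% higher, 3.68% lower). By adjusted p alone 19 of 39 differed, where 51.9% of all genes did (20.9% higher, 31.1% lower). Tspan33 had fetal signals of 31930 and 31151 in KO, against 28536 and 27285 in WT, and its effects differed by 1.17 ± 0.04 (adjusted p = 2.05e-06). For Car1, with fetal signals of 486 and 477 in KO against 574 and 545 in WT, the effects differed by 1.01 ± 0.11 (adjusted p = 0.000239). The Car1 call was lost in 7 of 19 alternatives, with values from 0.74 to 1.19, and that of Tspan33 in none, with values from 1.14 to 1.35.

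Epb41 had fetal signals of 35104 and 35938 in KO, against 37497 and 37395 in WT, a scaled difference of 0.17 ± 0.03 that was opposite in sign to the adult one, although the unscaled fetal signals were lower in KO. By the probe used, its effects differed by -1.06 ± 0.04 (adjusted p = 2.97e-06). Cpox had 3937 and 3844 in KO adult, against 6047 and 5583 in WT adult, and 23737 and 24288 in KO fetal, against 25323 and 25453 in WT fetal. Its effects differed by -1.10 ± 0.05 (adjusted p = 7.86e-06). Both calls ended with normexp, the other scalings and the deposited table, where values ran from -0.93 to -0.72. Uros (-0.88 ± 0.03), Zfpm1 (-0.87 ± 0.09) and Hemgn (-0.71 ± 0.05) had negative differences short of 2-fold. Tfrc differed by -0.58 ± 0.04 by the probe used, but averaging the probes of a gene took it to -1.65, a call; its other measured probe gave KO minus WT differences of -1.81 in adult and 0.74 in fetal liver.

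**Figure D5:**
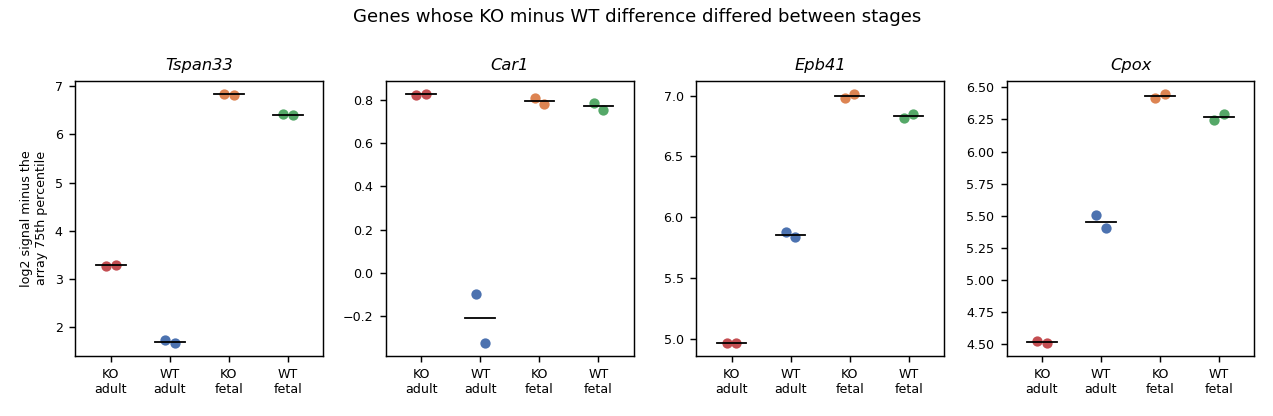
Scaled log2 signal of each array (points) and group mean (lines) for Tspan33, Car1, Epb41 and Cpox in KO adult, WT adult, KO fetal and WT fetal; vertical ranges differ between panels. In adult liver KO lies above WT for Tspan33 and Car1 and below WT for Epb41 and Cpox, while the fetal means differ by 0.42 or less.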

How the data were processed

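Single-colour Agilent arrays were analysed from the deposited scanner output, in which the processed signal is an intensity on a linear scale, background-subtracted by Feature Extraction 10.7.3.1 per the file headers. Per the labels' protocols, 200 ng of RNA per sample was labelled with Cy3. A deposited table of linear intensity values, whose normalization the sources used here do not give (median 18.1 in every column), served as an alternative.

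Here, log2 signals were scaled to the 75th percentile of each array. Outlier-flagged spots were dropped, spots of a probe were averaged, and probes were named by accession through RefSeq (GRCm38.p6; 26762 of 55681 matched 1 symbol, the rest none). A probe was kept if both arrays of any group detected it well above background. Differences came from limma 3.58.1 in R 4.3.3 (lmFit, eBayes with trend), 1 fit of 4 groups, with Benjamini-Hochberg adjustment over 14560 genes. A group dim on both arrays was set at the lowest signal well above background, or its own signal if higher, giving "at least" folds. The fit was checked on simulated data for the fetal KO minus WT comparison.

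The members, the lists and the genes shown were chosen with earlier results of these data known. All members are named. Of other lists, the called genes with the largest differences are named, at most 5 a list, and of marker lists at most 3. Alas1 was added for its place in the pathway, and Fabp2 for its part of the summed intestinal signal. The intestinal marker list was added after the values were seen. Slide row did not pair arrays: deviations correlated at -0.14 to 0.078 between groups. Alternatives were background correction, scaling, input table, dim-probe filter, probe averaging, variance trend, the 2-fold limit, slide row as a block and each array left out. Only 2 arrays per group limit the precision.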

Additional observations from a re-analysis of the deposited data

Results flagged for a closer look

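The knockout effect differed between adult and fetal liver for 4 members by a test of the difference itself, adult minus fetal on the log2 scale, where 9.73% of all genes were called, so the 4 of 39 are near the share of all genes. It was 1.17 for Tspan33, 1.01 for Car1, -1.06 for Epb41 and -1.10 for Cpox. For Epb41 and Cpox the KO minus WT differences had opposite signs at the 2 stages after scaling, although the unscaled fetal signals were lower in KO for both, and neither stage alone passed 2-fold.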

How the results depend on the processing

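With adjusted p alone, without the 2-fold limit, 23 members were called in adult liver, 20 in fetal liver and 19 for the difference between stages. Normexp gave 1 in adult liver, and 1 for the difference between stages, as did median scaling, quantile normalization and the deposited table; scaling to probes detected on all arrays gave 2. With only genes detected on all 8 arrays, 22 were called between stages in KO and 20 in WT liver, because only 25 members were tested. Leaving out 1 array at a time gave 2 to 6 calls in adult liver and 3 to 8 for the difference between stages. Sptb in KO liver, adult minus fetal, reversed to 0.22 with normexp. Slide row as a block (replicate block) left 2 calls in adult liver, 0 in fetal liver, 4 for the difference between stages, and 36 in KO and 33 in WT liver between adult and fetal, the same counts as without it; the row number does not pair the arrays. Median scaling moved the median of all genes in the WT stage comparison to -0.72. The 13 members dim in adult liver allow no order there.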

Other observations

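Genes of iron and haem recycling from spent red cells were called higher in KO adult than in WT adult in 5 of 13 cases. Of all genes, 4.96% were called higher. None of the 13 was called lower. By adjusted p alone 8 were higher and 4 lower, where 22.8% and 32.8% of all genes were. All 13 measured macrophage markers were higher in the same samples, with a median of 2.44, and Cd163 stands in both lists; the part of macrophage number in these values was not tested. Slc11a1, encoding a phagosomal metal transporter, had signals of 583 and 561 in KO adult, against 98.8 and 91.1 in WT adult, and rose by 2.23 ± 0.05 on the log2 scale. Spic, a transcription factor of red pulp and iron-recycling macrophages, was higher by 2.09 ± 0.19, and Vcam1, an adhesion gene, by 1.71 ± 0.03. Hmox1, encoding haem oxygenase 1, was higher by 1.02 ± 0.03, and Cd163, the haemoglobin scavenger receptor gene, was at least 1.70-fold higher. In fetal liver limma called 0 of the 13 recycling genes. By adjusted p alone 4 were higher and 1 lower there, where 13.9% and 8.61% of all genes were.

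Of the 8 measured globin genes, 7 were lower in adult than in fetal liver in each genotype. Of all genes, 27.8% were called lower in KO liver and 27.9% in WT liver. The embryonic gene Hbb-y was at least 5830-fold lower in KO adult and at least 4340-fold lower in WT adult. Hbb-bh1, another embryonic gene, had fetal signals of 106935 and 98984 in KO, against 48423 and 46526 in WT, and differed by 1.36 ± 0.32 (adjusted p = 0.0237). The other 7 globin genes, Hbb-y among them, were not called between genotypes in fetal liver, where 1.95% of all genes were. The median over the 8 was 0.23. Globin genes share sequence, and cross-hybridisation between their probes was not tested.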
